A study of Mus musculus with 5 samples.

Results

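The genes described are 40 nucleolar ribosome biogenesis genes, which encode proteins that transcribe ribosomal RNA, modify and cut it, and assemble it with ribosomal proteins. They were chosen by name, as the rows of the count table that map to 40 listed symbols, out of 52550 genes in the table. All 40 had 1 row and all 40 passed the filter on low counts, which left 11766 genes to be tested.

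RNA came from 3 BcorΔE9-10 and 2 BcorWT libraries of male mice. BcorΔE9-10 mice had the genotype scl-Cre-ERT +; Bcorfl/y and BcorWT mice scl-Cre-ERT +; Bcorwt/y, so the controls also carried the Cre. All mice received 1 mg of tamoxifen by intraperitoneal injection on each of 5 days, at 3-6 months of age. Cre-ERT is a recombinase that tamoxifen activates, here driven by Scl (Tal1) sequences active in haematopoietic stem cells, and the study's methods give the outcome as loss of exons 9 and 10 of Bcor, a subunit of a variant Polycomb repressive complex. Lin-cKit+Sca1- (KL) cells, the gate that holds committed myeloid progenitors, were sorted from bone marrow 20 weeks later. The strain is not given in the labels, and neither is the number of animals behind a library, so p-values measure only the spread between these libraries.

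Total counts ranged from 5998924 to 8303999 per library. Counts of Bcor were 196, 168 and 185 for BcorΔE9-10 and 83 and 109 for BcorWT, and it was called higher (0.78 with SE 0.218, limma adjusted p = 0.0313). That call held in 10 of 16 alternatives, and was lost with GC correction, alone or with the block, and when any library but the second BcorWT one was left out. Reads at the 3′ end do not cover the removed exons, so Bcor does not check the labels. Ly6a, the gene of the Sca1 antigen, was at 0.444 to 1.142 CPM, and Mpo, a granule enzyme of myeloid progenitors, at 4292 to 5534 CPM. The lineage gate of the study removes cells with the mature myeloid antigens CD11b (Itgam) and Gr-1 (Ly6g), so it would leave out maturing granulocytes. Itgam stood at 120 to 132 CPM in BcorΔE9-10 and 96.4 and 96.5 CPM in BcorWT, and was not called (log2 fold change 0.37, limma adjusted p = 0.0618). Ly6g stood at 208 to 228 CPM in BcorΔE9-10 and 569.7 and 320.6 CPM in BcorWT, and was called lower (-0.97, limma adjusted p = 0.00204). CPM is the count of a gene for every 1000000 counts of the library after TMM scaling. Genes were tested with limma on voom values, and a gene is said to be called where its Benjamini-Hochberg adjusted p over all genes tested was under 0.05. In these terms 1189 genes (10.1%) were called, 708 (6.02%) of them higher in BcorΔE9-10 and 481 (4.09%) lower. These shares depend on the fit. Scaling by total counts alone gave 1210 higher and 197 lower, and without BcorΔE9-10 library 3 a total of 708 genes were called.

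Ribosomes are built in the nucleolus. RNA polymerase I transcribes the ribosomal RNA precursor, small nucleolar ribonucleoproteins (snoRNPs) guide its methylation and pseudouridylation, and large processing complexes fold and cleave it into the RNAs of the small and the large subunit. Cells that divide fast need many ribosomes, and these genes are classical targets of Myc, the transcription factor that binds the E-box sequence CACGTG together with its partner Max.

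No nucleolar gene had an estimated difference of more than 2-fold between the genotypes. Of the 40 genes, 3 (7.5%) were called, a share near the 10.1% of all genes tested. Gar1 and Ddx21 were higher in BcorΔE9-10 (2 of 40, beside 6.02% of all genes), and Heatr1 was lower (1 of 40, beside 4.09%). The other 37 did not pass the threshold, and 8 of the 40 had an unadjusted p under 0.05, where 25.3% of all genes tested did. Without BcorΔE9-10 library 2, 1 of the 40 was called, and the calls over all genes fell to 789.

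Across the 40 genes the log2 fold changes (BcorΔE9-10 over BcorWT) ran from -0.66 to 0.69, with a median of -0.19 where the median over all genes tested was 0.00. There were 12 positive and 28 negative values. Scaling by total counts alone gave a median of -0.040 for the 40 genes and 0.15 for all genes. The gap between these medians was -0.19 as fitted. It shrank to -0.11 with GC correction, -0.12 with a replicate block and -0.065 with both. The group difference in the block fits comes from libraries 1 and 2 alone, because BcorΔE9-10 library 3 has no BcorWT library of its number. Those fits therefore overlap with leaving out BcorΔE9-10 library 3, which gave -0.13, as did leaving out BcorWT library 2. The gap widened to -0.214 with no filter, -0.205 with quality weights and -0.222 without BcorΔE9-10 library 2, and was negative in every alternative. Every BcorΔE9-10 library lay below both BcorWT libraries for 14 of the 40 genes (20.3% of all genes tested) and above both for 4 (22.6% of all genes tested), and the groups overlapped for 22. The 95% limma interval of the fold change lay within 2-fold in both directions for 37 genes and within 1.5-fold in both directions for 15. The 3 genes whose interval reached beyond 2-fold were Gar1 (log2 interval 0.30 to 1.08), Polr1b (-1.18 to -0.02) and Nle1 (-1.44 to 0.11).

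**Figure D1:**
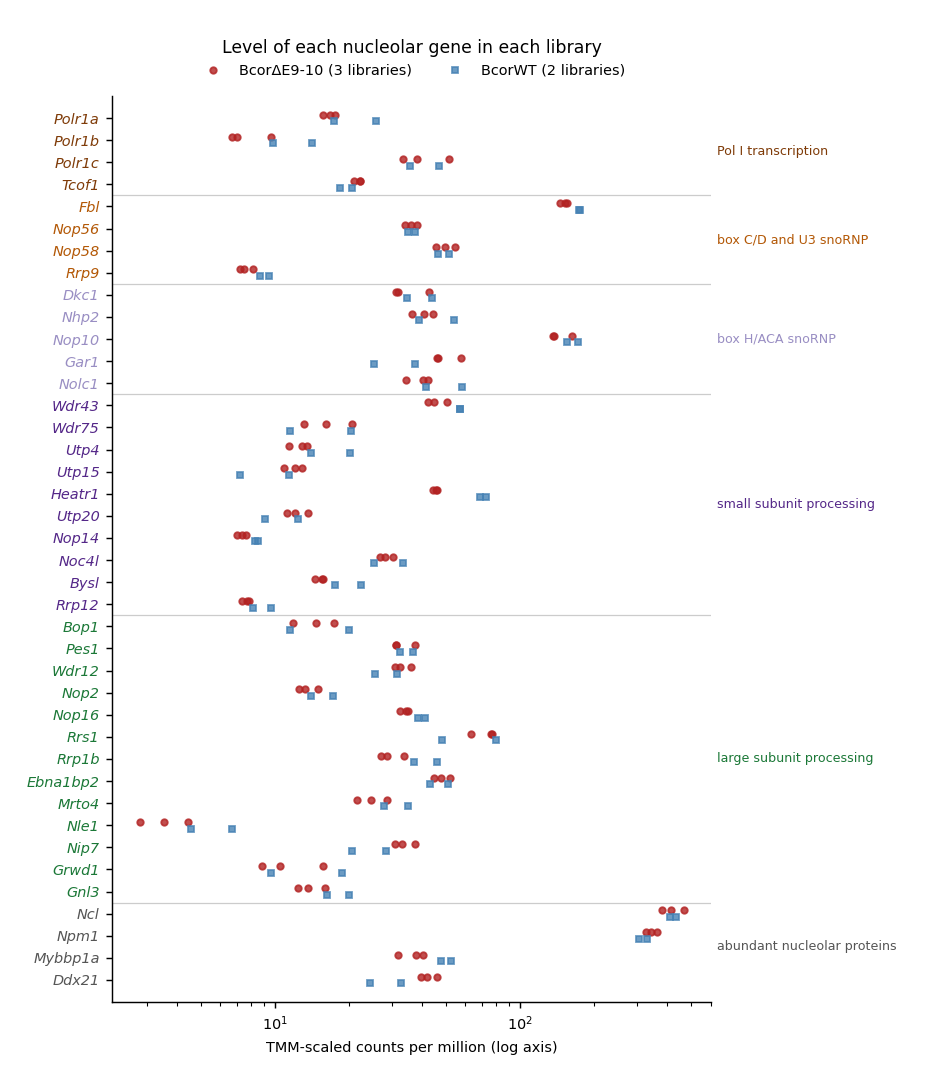
Level of each of the 40 nucleolar genes in each library, in TMM-scaled CPM on a log axis. Red circles are the 3 BcorΔE9-10 libraries and blue squares the 2 BcorWT libraries, and genes are grouped by role. The circles and squares overlap for 22 genes, the circles lie to the left for 14 and to the right for 4.

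Summed over the 40 genes, the level was 1995, 2201 and 1972 CPM in the BcorΔE9-10 libraries and 2065 and 2220 CPM in the BcorWT libraries. The means were 2056 ± 126 CPM (SD, n = 3) and 2143 ± 110 CPM (SD, n = 2), and the libraries of the groups interleave. Abundant genes weigh most in these sums. Ncl averaged 420.7 CPM in BcorΔE9-10 and 423.5 CPM in BcorWT, and Npm1 344.4 and 317.3 CPM. The median of the genes' mean levels was 32.5 CPM.

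Myc itself was called higher in BcorΔE9-10. Its counts were 113, 98 and 81 for BcorΔE9-10 and 16 and 19 for BcorWT. This is a log2 fold change of 2.26 with an SE of 0.446 (limma adjusted p = 0.00401) and a 4.8-fold difference, with no overlap between the groups.

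**Figure D2:**
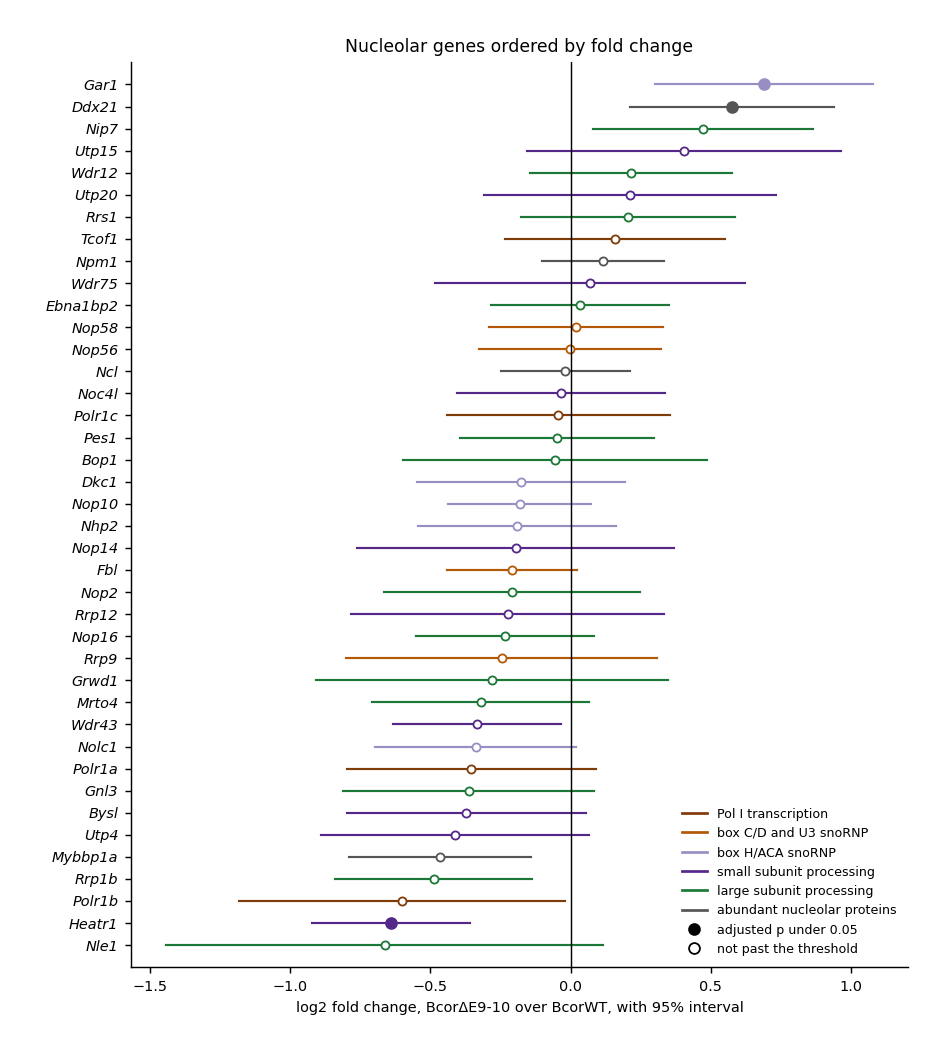
The log2 fold change of each nucleolar gene (BcorΔE9-10 over BcorWT) with its 95% limma interval, ordered by size and coloured by role. Filled points mark the 3 called genes, Gar1, Ddx21 and Heatr1, and open points the 37 others. Most open intervals cross 0.

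The E-box CACGTG, which reads the same on both strands, was looked for in RefSeq promoters of GRCm38.p6, each running from 250 bases before to 50 bases after a gene's start. A promoter sequence was given for 34 of the 40 genes, and 8 of them (23.5%) held the motif. It was found for 12.4% of the 8300 tested genes with a promoter, and for 7.15% of all 32851 promoter sequences. None of the called genes Gar1, Ddx21 and Heatr1 held it in this window. The median log2 fold change was -0.31 for the 8 genes with the motif and -0.18 for the 26 without, and over the tested genes it was -0.03 with the motif and -0.02 without. A match describes the letters of the window and no binding was measured. The 8 stretches are shown because they are the nucleolar promoters with the sequence that Myc is known to bind. They were chosen after the values were seen. Each is printed 5′ to 3′ on the gene's own strand, with the motif in capitals and up to 12 bases on either side.
Nop2, chr6:125131811-125131840, plus strand: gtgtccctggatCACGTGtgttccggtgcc
Pes1, chr11:3963965-3963994, plus strand: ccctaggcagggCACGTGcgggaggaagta
Utp4, chr8:106893643-106893672, plus strand: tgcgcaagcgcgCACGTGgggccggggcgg
Wdr43, chr17:71616220-71616249, plus strand: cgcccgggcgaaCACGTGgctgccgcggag
Nle1, chr11:82908355-82908384, minus strand: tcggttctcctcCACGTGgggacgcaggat
Grwd1, chr7:45830740-45830767, minus strand: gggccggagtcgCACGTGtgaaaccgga
Utp20, chr10:88826765-88826789, minus strand: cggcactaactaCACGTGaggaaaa
Mybbp1a, chr11:72441355-72441376, plus strand: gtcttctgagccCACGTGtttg
In Nop2 the motif began 60 bases before the start. In the other 7 genes it began within the first bases of the transcript, from base 3 in Pes1 to base 41 in Mybbp1a. None of these 8 genes was called, and their log2 fold changes ran from -0.66 for Nle1 to 0.21 for Utp20.

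Among the genes of RNA polymerase I transcription, none of 4 was called (10.1% of all genes tested were), and the median log2 fold change was -0.20. Polr1a encodes the largest subunit of the polymerase, and its level was 16.7 ± 0.939 CPM (SD, n = 3) in BcorΔE9-10 and 21.7 ± 6.01 CPM (SD, n = 2) in BcorWT. The BcorWT libraries themselves read 26.0 and 17.5 CPM, so the gap within the controls exceeded that between the genotypes. Polr1b, the second largest subunit, had 82, 43 and 57 counts in BcorΔE9-10 and 69 and 96 in BcorWT. Its CPM values did not overlap between the groups, but its log2 fold change of -0.60 (SE 0.274) had a limma adjusted p of 0.180. Polr1c, a subunit that polymerases I and III share, had a log2 fold change of -0.04. Tcof1 encodes treacle, a cofactor of ribosomal DNA transcription, and lay at 22.2, 22.4 and 21.04 CPM in BcorΔE9-10 and at 18.4 and 20.7 CPM in BcorWT (log2 fold change 0.16, limma adjusted p = 0.634).

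The box C/D and U3 snoRNP genes gave some of the narrowest intervals. Fbl encodes fibrillarin, the methyltransferase of box C/D particles, and read 155.5, 152.7 and 146.2 CPM in BcorΔE9-10 and 175.7 and 174.5 CPM in BcorWT. The groups did not overlap, and the log2 fold change of -0.21 (SE 0.110) did not pass the threshold (limma adjusted p = 0.248). Nop56 and Nop58 encode the scaffold proteins of the same particles. Nop56 averaged 36.1 ± 1.97 CPM (SD, n = 3) in BcorΔE9-10 and 36.1 ± 1.5 CPM (SD, n = 2) in BcorWT. Its log2 fold change was 0.00, with an interval from -0.33 to 0.32. For Nop58 the interval ran from -0.29 to 0.33 around 0.02. Rrp9, a protein of the U3 particle, had only 44 to 69 counts in any library and a log2 fold change of -0.25 (SE 0.262). None of the 4 genes was called, where 10.1% of all genes tested were.

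Box H/ACA particles direct pseudouridylation and hold 4 core proteins, dyskerin (Dkc1), Nhp2, Nop10 and Gar1. Gar1 was the nucleolar gene with the highest positive fold change. Its counts were 393, 352 and 394 for BcorΔE9-10 and 178 and 251 for BcorWT, so each BcorΔE9-10 library lay above both controls. Gar1 (mm10, chromosome 3, 129824912 to 129831396, minus strand) averaged 49.98 ± 6.46 CPM (SD, n = 3) in BcorΔE9-10 and 31.2 ± 8.43 CPM (SD, n = 2) in BcorWT. The log2 fold change was 0.69 with an SE of 0.183 (limma adjusted p = 0.0247). The call was lost without the second BcorΔE9-10 library (0.59, limma adjusted p = 0.0785) and without the first BcorWT library (0.40, limma adjusted p = 0.286).

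The other H/ACA core genes had values of the opposite sign and were not called. Dkc1, the pseudouridine synthase, read 31.3, 42.4 and 31.9 CPM in BcorΔE9-10 and 43.6 and 34.7 CPM in BcorWT, with a log2 fold change of -0.18 (interval -0.55 to 0.19). For Nhp2 the log2 fold change was -0.19, and for Nop10 it was -0.18 (interval -0.44 to 0.07). Nolc1 encodes Nopp140, a chaperone of snoRNPs, and stood at 40.4, 42.1 and 34.4 CPM in BcorΔE9-10 and 41.3 and 57.9 CPM in BcorWT (log2 fold change -0.34, limma adjusted p = 0.225). All 4 of these genes overlapped between the groups.

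The 1 gene called lower belongs to the small subunit processing genes. Heatr1, a large scaffold protein of the small subunit processome that is also needed for polymerase I transcription, had 388, 271 and 389 counts in BcorΔE9-10 and 510 and 463 in BcorWT. In CPM the BcorΔE9-10 libraries stood close together at 45.9, 44.2 and 45.5, and both controls were far above them at 72.4 and 68.6. Heatr1 (mm10, chromosome 13, 12395027 to 12440289, plus strand) fell from 70.5 ± 2.70 CPM (SD, n = 2) in BcorWT to 45.2 ± 0.854 CPM (SD, n = 3) in BcorΔE9-10. The log2 fold change was -0.64 with an SE of 0.133 (limma adjusted p = 0.00597). The gene overlaps Lgals8 on the opposite strand, and whether counting used strand is not given in the sources used here. Lgals8 had 47 to 97 counts and was not called (-0.31, limma adjusted p = 0.528). Leaving out any 1 library left Heatr1 called, with log2 fold changes from -0.68 to -0.60 and limma adjusted p up to 0.0439.

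In the small subunit group 10 genes were measured. Of these, 6 lay below both controls in every BcorΔE9-10 library (20.3% of all genes tested did). Heatr1 was the 1 called (10.1% of all genes tested were). Wdr43, a processome subunit, read 42.2, 50.4 and 44.5 CPM in BcorΔE9-10 and 57.2 and 57.0 CPM in BcorWT. Its log2 fold change of -0.33 (SE 0.142) had a limma adjusted p of 0.151. Utp4, of the same early-binding subcomplex, had a value of -0.41 (SE 0.225) and Bysl, which acts late in small subunit assembly, -0.37 (SE 0.201). Bysl overlaps Ccnd3 on the opposite strand, a gene with 5214 to 9046 counts that was called lower (-0.57, limma adjusted p = 0.00117). The remaining non-overlapping genes, Nop14 and Rrp12, had 43 to 68 counts in any library and log2 fold changes of -0.20 and -0.22. Utp15, Utp20 and Wdr75 had positive values of 0.40, 0.21 and 0.07, and Noc4l, the partner of Nop14, stood at -0.04. None of these passed the threshold, and the interval of Utp15 ran from -0.15 to 0.96.

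The large subunit processing genes were the biggest group, with 13 members. Of these, 0 were called at this threshold, where 10.1% of all genes tested were. Rrp1b and Nip7 (2 of 13) had an unadjusted p under 0.05, where 25.3% of all genes tested did. Their median log2 fold change was -0.21, with 4 positive and 9 negative values. Rrp1b, a nucleolar protein of the Rrp1 family, had 229, 206 and 246 counts in BcorΔE9-10 and 261 and 311 in BcorWT. On the CPM scale its groups did not overlap, and the log2 fold change of -0.49 (SE 0.166) came to a limma adjusted p of 0.0740. Nip7, a pre-60S factor, stood in the opposite direction at 30.9, 37.4 and 33.1 CPM against 20.6 and 28.3 CPM (log2 fold change 0.47 with SE 0.185, limma adjusted p = 0.121).

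The PeBoW complex, which joins Pes1, Bop1 and Wdr12 and is required for large subunit RNA processing, had values of both signs and no called member. Pes1 had a log2 fold change of -0.05 (interval -0.39 to 0.30), Bop1 -0.06 (-0.60 to 0.49) and Wdr12 0.21 (-0.15 to 0.57). Wdr12 overlaps Carf on the opposite strand, a gene with 80, 50 and 66 counts in BcorΔE9-10 and 8 and 9 in BcorWT. Among the factors that recruit the 5S particle or other ribosomal proteins, Rrs1 read 63.0, 76.7 and 76.2 CPM in BcorΔE9-10 and 48.3 and 80.0 CPM in BcorWT, and Grwd1 read 10.5, 15.7 and 8.88 CPM against 9.66 and 18.8 CPM. For Rrs1 the 2 controls lay on either side of all BcorΔE9-10 libraries, and for Grwd1 on either side of 2 of the 3. Nle1, a partner of the Mdn1 remodelling ATPase, had the fewest counts of the 40 genes, 24 to 32 in 4 libraries and 45 in the second BcorWT library. Its log2 fold change of -0.66 had a wide error (SE 0.368, limma adjusted p = 0.277).

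The other large subunit genes were not called. Nop2, an RNA methyltransferase, had a log2 fold change of -0.21, Nop16 -0.23, and Mrto4, which holds the place of the stalk protein P0, -0.32. Gnl3 encodes nucleostemin, a GTPase abundant in stem and progenitor cells, and lay at 16.0, 12.4 and 13.7 CPM in BcorΔE9-10 and 16.3 and 20.1 CPM in BcorWT (log2 fold change -0.36, limma adjusted p = 0.302). Ebna1bp2, an early pre-60S factor, was at 0.03 (interval -0.28 to 0.35).

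Nucleolin (Ncl) and nucleophosmin (Npm1), the abundant structural proteins of the nucleolus, had 2151 to 3544 counts per library. Ncl stood at 379.6, 468.3 and 414.2 CPM in BcorΔE9-10 and 435.8 and 411.2 CPM in BcorWT, and Npm1 at 341.7, 363.7 and 327.7 CPM against 305.5 and 329.1 CPM. Both overlapped between the groups, and the intervals were narrow, from -0.25 to 0.21 for Ncl and from -0.10 to 0.33 for Npm1. Mybbp1a, a Myb-binding nucleolar protein that takes part in ribosomal RNA processing, lay at 31.9 to 40.1 CPM in BcorΔE9-10 and at 47.7 and 52.3 CPM in BcorWT. Its log2 fold change of -0.47 (SE 0.153) did not pass the threshold (limma adjusted p = 0.0639).

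Ddx21, a DEAD-box RNA helicase that acts in ribosomal DNA transcription and RNA processing, was the second gene called higher. It had 334, 281 and 358 counts in BcorΔE9-10 and 173 and 220 in BcorWT, with no overlap in CPM. Ddx21 (mm10, chromosome 10, 62580251 to 62602281, minus strand) averaged 42.4 ± 3.22 CPM (SD, n = 3) in BcorΔE9-10 and 28.6 ± 5.68 CPM (SD, n = 2) in BcorWT. This gave a log2 fold change of 0.57 with an SE of 0.172 (limma adjusted p = 0.0431). Its last 300 bases are 27% GC, and with a GC trend removed from each library the log2 fold change was 0.22 (limma adjusted p = 0.466). The call was also lost without any 1 of the BcorΔE9-10 libraries (limma adjusted p from 0.0580 to 0.112) and without the first BcorWT library (0.36, limma adjusted p = 0.340).

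**Figure D3:**
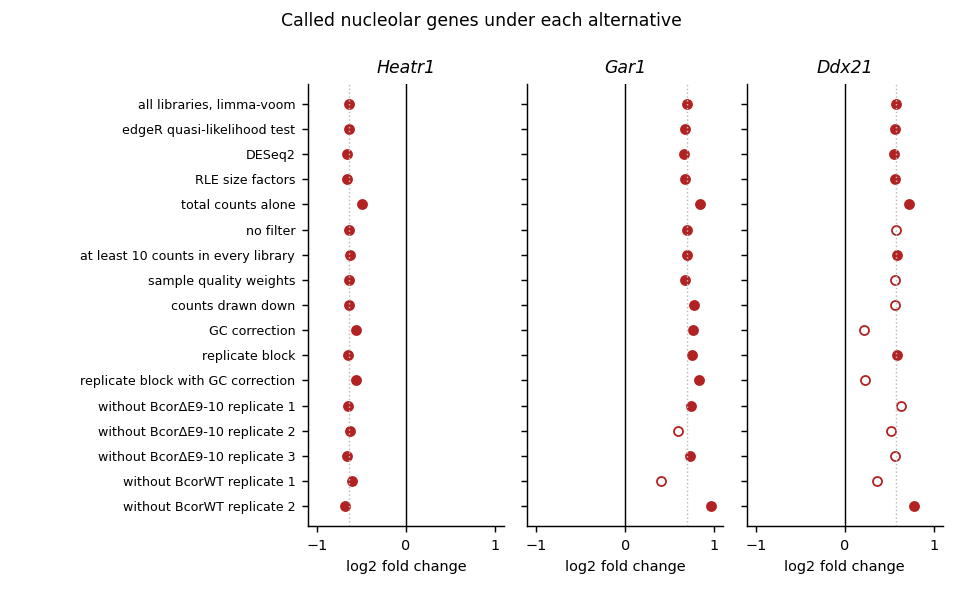
The log2 fold change of Heatr1, Gar1 and Ddx21 in limma-voom with all libraries (top, dotted line) and in 16 alternatives, with filled points where the gene was called and open points where it was not. Heatr1 is filled throughout, Gar1 is open without BcorΔE9-10 library 2 and without BcorWT library 1, and Ddx21 is open in 9 of the alternatives.

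The libraries of a group were not alike for these genes. The second BcorWT library read higher than the first for 27 of the 40 genes (67.5%), where it did so for 52.2% of all genes tested, with a median difference of 0.28 in log2 CPM and ratios from 0.573 for Bop1 to 1.95 for Grwd1. For 22 genes the difference between the group means of log2 CPM was smaller than the difference between the 2 controls. Among the BcorΔE9-10 libraries the second was the highest for 22 genes, the first for 13 and the third for 5, and the highest library exceeded the lowest by a median ratio of 1.2.

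The rest of the pathway was read from the same fit. Of 120 further ribosome biogenesis genes, 117 were tested. Of these, 3 were called higher, 3 lower and 111 not called, so 5.13% were called beside 10.1% of all genes tested. Their median log2 fold change was -0.10. It was 0.059 with total counts alone and ran from -0.19 to -0.042 in fits without 1 library. The split by direction depended on the fit, with 7 higher and 0 lower under total counts alone, 3 and 6 with RLE size factors, 1 and 5 with GC correction and 6 and 1 with a replicate block. The calls fell to 2 higher and 0 lower without BcorΔE9-10 library 3 and to 1 higher and 1 lower without BcorWT library 1, and were 4 and 0 without BcorΔE9-10 library 1 and 5 and 0 without BcorWT library 2. Ddx10, a helicase of the small subunit pathway, had 137, 133 and 102 counts against 48 and 38 (log2 fold change 1.33 with SE 0.325, limma adjusted p = 0.0159). Taf1d, a subunit of the polymerase I factor SL1, had 392, 325 and 393 counts against 210 and 184 (0.75, SE 0.160, limma adjusted p = 0.00706). The third called higher, Exosc3 of the RNA exosome, had 53 to 89 counts against 21 and 25, and is named outside the naming rule. Lower were Mdn1, the remodelling ATPase of pre-60S particles (-0.57, limma adjusted p = 0.0431), Rcl1, a processome factor (-0.50, limma adjusted p = 0.0390), and Dcaf13, a processome subunit (-0.46, limma adjusted p = 0.0437). Of these 6 genes, Taf1d was called in all 16 alternatives, Ddx10 in 13, Exosc3 and Mdn1 in 8 each, and Rcl1 and Dcaf13 in 7 each. Rcl1 lost its call without any 1 of the BcorΔE9-10 libraries (limma adjusted p from 0.0672 to 0.106). When 1 BcorΔE9-10 library was left out, Mdn1 and Dcaf13 were called only without library 2. Exosc3, called higher, was then called only without library 1. Ddx10 and Taf1d kept their calls in these fits.

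Cytosolic ribosomal protein genes, whose products the nucleolar factors assemble, were called for 3 of 82 tested (3.66%, beside 10.1% of all genes tested). Rpl17 (0.91, limma adjusted p = 9.8e-05) and Rps24 (0.38, limma adjusted p = 0.00986) were higher, Rplp1 (-0.36, limma adjusted p = 0.0120) was lower, and the median was 0.00. The interval lay within 1.5-fold in both directions for 80 of the 82. The count of calls was 21 with total counts alone, 7 with no filter, 6 with a replicate block, 8 with block and GC correction, 5 without BcorWT library 2 and 1 without BcorWT library 1. Of 24 proliferation genes, 4 were called higher and 3 lower, with a median of -0.01. These calls were 29.2% of the list, beside 10.1% of all genes tested. Without BcorWT library 1, 0 were called higher and the median was -0.15, and without BcorWT library 2 the median was 0.18.

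**Figure D4:**
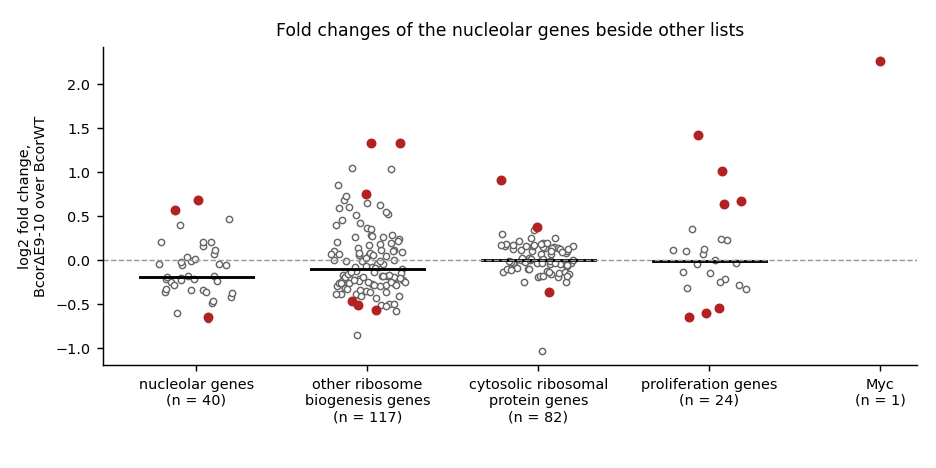
The log2 fold change (BcorΔE9-10 over BcorWT) of every tested gene in 4 lists and of Myc. Filled red points were called, open points were not, and black bars are list medians. The medians are -0.19 for the nucleolar genes, -0.10 for other ribosome biogenesis genes, 0.00 for ribosomal protein genes and -0.01 for proliferation genes, and Myc stands at 2.26.

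Marker genes of other cells differed between the same libraries, and their part in the values of the nucleolar genes was not tested. Over all genes tested, 6.02% were called higher and 4.09% lower. The 10 markers of maturing granulocytes, cells that the lineage gate would remove, summed to 149700 to 173600 CPM in BcorΔE9-10 and to 216700 and 228500 CPM in BcorWT, with 7 of 10 called lower and none at 0. Those of basophils, mast cells and eosinophils summed to 457 to 630 CPM against 1099 and 1409 CPM, with 8 of 11 called lower and 1, Gata2, higher. Monocyte markers summed to 1147 to 1295 CPM against 1518 and 1528 CPM with 1 of 8 called lower, and erythroid markers to 129 to 326 CPM against 72.7 and 119 CPM with 1 of 8 tested called higher. None of 6 tested megakaryocyte markers was called, and the list summed to 66.0 to 91.9 CPM against 80.4 and 45.0 CPM. None of 6 tested lymphoid markers was called either, and that list summed to 52.6 to 72.1 CPM against 71.2 and 43.4 CPM. Most of the lymphoid sum was Ighm, the immunoglobulin heavy chain gene, with 225 to 401 counts in every library, while Cd79a and Cd3e had at most 4 counts in any library. Kit was the 1 progenitor marker of 10 called, at 49.4 to 53.4 CPM against 18.2 and 19.6 CPM. In such bulk libraries, fewer cells of a type and less RNA per cell cannot be told apart.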

How the data were processed

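KL cells were profiled with QuantSeq, which reads the 3′ end of polyadenylated transcripts, as 75-base single-end reads. The authors trimmed reads with cutadapt (version 1.7 in the submitters' notes), aligned them to mm10 with HISAT2 and counted them with featureCounts of Subread (version 1.5.0-p3). The deposited table holds raw counts for each gene. Strand and multimapping options are not given in the sources used here, and 30-base words of the last 300 transcript bases are shared with other genes for Fbl (59.8%), Nop56 (66.8%), Polr1b (74.2%) and Wdr12 (55.7%).

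Genes were kept with filterByExpr (edgeR 4.0.16; minimum count 10, minimum total 15), scaled by TMM and tested with limma 3.58.1 on voom values in R 4.3.3, with Benjamini-Hochberg adjustment over 11766 genes, two-sided. The 40 genes and all lists were chosen with earlier results of these data known. All 40 could be named, and of the other ribosome biogenesis genes the 5 largest changes in each direction among those called whose mean log2 CPM reached 3. Replicates differed beyond sampling noise (6.01 to 11.6 chi-square units per gene). Alternatives were edgeR's quasi-likelihood test, DESeq2 1.42.0, other scalings and filters, quality weights, equal depth, GC correction, a replicate block and fits without each library in turn.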

Additional observations from a re-analysis of the deposited data

How the results depend on the processing

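Counts of 24 to 3544 per library limit the precision for the low genes. Heatr1 stayed called in all 16 alternatives (-0.68 to -0.50) and Myc too (2.11 to 2.59, limma adjusted p up to 0.0448). Total counts without TMM scaling moved the median of all genes to 0.15 and the split of calls from 708 higher and 481 lower to 1210 and 197. The nucleolar median then became -0.040, still 0.19 below that of all genes, and Nip7 was called (0.62, adjusted p = 0.0449). The same setting gave medians of 0.059 for other ribosome biogenesis genes, 0.14 for ribosomal protein genes, with 21 of these called, and 0.13 for proliferation genes. Without the filter on low counts 7 ribosomal protein genes were called.

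Deviations of same-numbered libraries from their group means had r = 0.0573 and 0.0667. With 2 BcorWT libraries these values are not independent, and BcorΔE9-10 library 3 has no partner. They cannot decide whether library numbers pair the samples. With the replicate block 1454 genes were called, with 2 nucleolar genes higher and 1 lower, 6 ribosomal protein genes and a nucleolar median of -0.11, which is -0.12 relative to all genes. Block and GC correction together gave a nucleolar median of -0.084, or -0.065 relative to all genes beside -0.19 with neither, 8 ribosomal protein genes called and a ribosomal protein median of 0.091. Ddx21 also missed the threshold with no filter, quality weights and equal depth (adjusted p 0.0532 to 0.0598).

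Leaving out 1 library gave 484 to 1141 genes called, with 484 without BcorWT replicate 1, 708 without BcorΔE9-10 replicate 3 and 789 without BcorΔE9-10 replicate 2. Nucleolar genes called ranged from 1 (without BcorΔE9-10 replicate 2 or BcorWT replicate 1) to 3, and their median from -0.22 to -0.12. Other ribosome biogenesis genes called ranged from 2 to 5 with medians of -0.19 to -0.042, ribosomal protein genes called from 1 (without BcorWT replicate 1) to 5 (without BcorWT replicate 2), and proliferation genes called from 4 (without BcorWT replicate 1) to 6 with medians of -0.15 to 0.18. The cause of these shifts was not tested.

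Signs changed in 48 of 640 comparisons of a nucleolar gene with an alternative, over 15 genes, none of them called in any fit. Total counts gave positive values for Polr1c (0.10), Nop56 (0.14), Noc4l (0.11), Bop1 (0.086), Pes1 (0.10) and Ncl (0.12). Nop56 also turned positive with no filter (0.0030) and with at least 10 counts in every library (0.0051). GC correction turned Polr1c (0.0099), Nop56 (0.067), Noc4l (0.023), Bop1 (0.064), Nop58 (-0.13), Wdr75 (-0.085), Wdr12 (-0.13) and Npm1 (-0.079). The block turned Polr1c (0.099), Nop56 (0.041), Noc4l (0.0093) and Ebna1bp2 (-0.024), and the block with GC correction Polr1c (0.15), Nop56 (0.11), Nop58 (-0.053), Wdr75 (-0.062), Noc4l (0.068), Bop1 (0.0060), Wdr12 (-0.078) and Npm1 (-0.039). Without 1 library the sign varied for Polr1c (-0.24 to 0.15), Nop56 (-0.049 to 0.039), Nop58 (-0.059 to 0.091), Nhp2 (-0.43 to 0.041), Wdr75 (-0.35 to 0.47), Utp20 (-0.020 to 0.43), Noc4l (-0.24 to 0.16), Bop1 (-0.45 to 0.35), Pes1 (-0.14 to 0.037), Rrs1 (-0.17 to 0.56), Ebna1bp2 (-0.10 to 0.16), Grwd1 (-0.77 to 0.19) and Ncl (-0.10 to 0.054), where the range covers all 5 fits that leave out 1 library.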
